A study of Mus musculus with 2 samples.

Results

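The 7 genes described here encode S100 calcium-binding proteins: S100a1, S100a4, S100a6, S100a8, S100a9, S100a10 and S100a11. They were picked by gene symbol, and all 7 were found among the 31053 genes of the deposited tables. The data are single-cell RNA measurements of bone marrow derived macrophage cultures from wild-type 129Sv mice. Both cultures grew with macrophage colony-stimulating factor at 50 ng/ml and 10% serum. On day 7 a culture received 1 µg/ml of truncated, non-polymerizing Tamm-Horsfall protein (THP, or uromodulin, a protein made by the kidney) for 18 h, and another received the vehicle, 5% dextrose, for the same time. Each group is 1 library, so no difference between THP and vehicle has a replicate check, none was tested, and treatment cannot be told apart from dish or library. The labels do not give the number of mice that marrow came from. Where a pair of values follows, the THP library comes first and the vehicle library after it.

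S100 proteins are small proteins with a pair of EF-hand loops, which bind calcium in most but not all of them, and most work as dimers. Within cells most of them change shape when calcium rises and then bind cytoskeletal, membrane or annexin partners. S100A8 and S100A9 form calprotectin, which fills the cytosol of neutrophils, chelates zinc and manganese, and acts as an alarm signal on Toll-like receptor 4 when released. S100a4, S100a6, S100a10 and S100a11 are expressed in many motile cells, macrophages among them, and S100a1 is best known from heart muscle.

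In the GENCODE M21 annotation of GRCm38, all 7 genes lie on chromosome 3. S100a1 (90511034 to 90514392, minus strand), S100a4 (90603771 to 90606045, plus), S100a6 (90612882 to 90624181, plus), S100a8 (90668978 to 90670035, plus) and S100a9 (90692632 to 90695721, minus) lie within 184688 bases. S100a11 (93520488 to 93526287, plus) and S100a10 (93555080 to 93564643, plus) lie together within 44156 bases farther along the chromosome. Their longest transcripts have 498 to 783 bases. A predicted gene, Gm42674, overlaps S100a4, and no source used here says whether reads were counted by strand, so the count of S100a4 is uncertain in that respect.

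RefSeq promoter windows on GRCm38.p6 matched 6 of the 7 genes, all but S100a10. The 250 bases before the RefSeq start are shown for S100a8 and S100a9, because these 2 genes followed each other most closely across the cell classes below, and for S100a4, because it differed most between the libraries in all cells. Sequences run 5′ to 3′ in the direction of the gene, and capitals mark matches to any of 4 motifs, each searched on both strands. The TATA box was written as TATAAA. The PU box, bound by factors such as PU.1, was written as GAGGAA. A C/EBP-type site was written as TTGCNNAA. An AP-1-type site was written as TGANTCA. In S100a8 a PU box and the TATA box touch. The windows are chr3:90668821-90669070 (plus) for S100a8, chr3:90695722-90695971 (minus) for S100a9 and chr3:90603520-90603769 (plus) for S100a4.
S100a8: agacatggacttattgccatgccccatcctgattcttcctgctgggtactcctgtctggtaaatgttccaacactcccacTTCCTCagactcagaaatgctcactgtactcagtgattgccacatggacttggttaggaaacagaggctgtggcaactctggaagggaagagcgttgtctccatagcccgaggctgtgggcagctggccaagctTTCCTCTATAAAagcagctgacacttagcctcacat
S100a9: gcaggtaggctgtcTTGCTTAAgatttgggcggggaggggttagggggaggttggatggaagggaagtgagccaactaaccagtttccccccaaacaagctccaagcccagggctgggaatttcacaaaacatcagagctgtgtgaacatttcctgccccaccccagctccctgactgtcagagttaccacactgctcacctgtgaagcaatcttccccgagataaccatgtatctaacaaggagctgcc
S100a4: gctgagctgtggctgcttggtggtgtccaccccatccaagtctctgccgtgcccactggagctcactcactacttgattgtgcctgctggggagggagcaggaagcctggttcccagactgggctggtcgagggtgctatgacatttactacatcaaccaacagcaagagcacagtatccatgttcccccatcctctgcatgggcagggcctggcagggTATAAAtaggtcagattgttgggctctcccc

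The search covered 300 bases, the 250 shown and the 50 that follow the start. S100a8 held a TATA box at position -30 from the start and PU boxes, on the minus strand, at -170 and -36. S100a4 held a TATA box at -31, and a PU box at 20, beyond the window shown. S100a9 held a C/EBP-type site at -236, while its TATA box began at position 1, the RefSeq start itself, and so lies outside the window shown. S100a11 held a PU box at -153 and AP-1-type sites at -136 and -38. S100a1 and S100a6 held none of the 4 motifs. Among 32851 promoter windows of this length, 13.6% held the TATA box, 28.3% the PU box, 10.8% the C/EBP-type and 7.81% the AP-1-type site. These are letter matches only.

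After filtering, 12123 cells with 224825484 UMIs (unique molecular identifiers, each marking 1 captured RNA molecule) remained for THP, and 10978 cells with 207662132 UMIs for vehicle. Kept cells of the 2 libraries shared 38 barcodes. Levels are CPM, the UMIs of a gene per 1000000 UMIs of the same cells, with exact Poisson 95% intervals that cover counting error only. UMI counts are not divided by transcript length. Although the cultures are labelled macrophages, cells sorted by marker genes (never by an S100 gene) fell into 7 classes of at least 50 cells in each library. The macrophage gate, set by C1qa, Adgre1, Csf1r and 7 other markers, held 3939 THP cells (32.5%) and 2668 vehicle cells (24.3%). Immature neutrophils with granule-protein RNA made up 11.8% and 16.1%, progenitors with Mpo and Elane 12.6% and 17.2%, and mature neutrophils with Retnlg and Cxcr2 1.31% and 2.95%. Monocyte, MHC class II high and stromal gates held 700, 900 and 75 THP cells and 1001, 978 and 69 vehicle cells, and 27.1% and 20.2% of cells passed no gate or tied.

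S100a8 and S100a9, the subunits of calprotectin, were the most abundant members. Over all kept cells S100a9 was at 14602 and 17721 CPM (THP, vehicle), ranks 3 and 2 among all genes. S100a8 was at 6742 and 8575 CPM, rank 7 in both. Both were lower in the THP library, by a log2 ratio of CPM + 1 of -0.28 for S100a9 and -0.35 for S100a8. The share of neutrophil-gate and progenitor-gate cells was also lower there. With the same mix of classes in both libraries the ratios were 0.11 and 0.02, so the direction of both turned, and with TMM scaling factors that of S100a9 turned too, to 0.0059.

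Within classes the calprotectin genes formed a steep gradient that followed the neutrophil lineage. In mature neutrophils S100a9 was at 171856 CPM (THP) and 147037 CPM (vehicle), and S100a8 at 84069 and 74822 CPM. The pair thus made up 25.6% and 22.2% of all UMIs of those cells. In immature neutrophils S100a9 was at 132174 and 127175 CPM and S100a8 at 58366 and 59571 CPM, 19.1% and 18.7% of UMIs together. In progenitors S100a9 was at 35709 and 29570 CPM and S100a8 at 15619 and 13645 CPM. These were the 2 most abundant genes in all 3 of those gates in both libraries. The monocyte gate came next, with S100a9 at 3332 and 3091 CPM and S100a8 at 2415 and 2459 CPM, and the MHC class II high, macrophage and stromal gates all lay below 1000 CPM. Of all S100a8 UMIs, 47.0% and 49.8% were in the immature neutrophil gate and 30.7% and 31.5% in the progenitor gate.

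**Figure D1:**
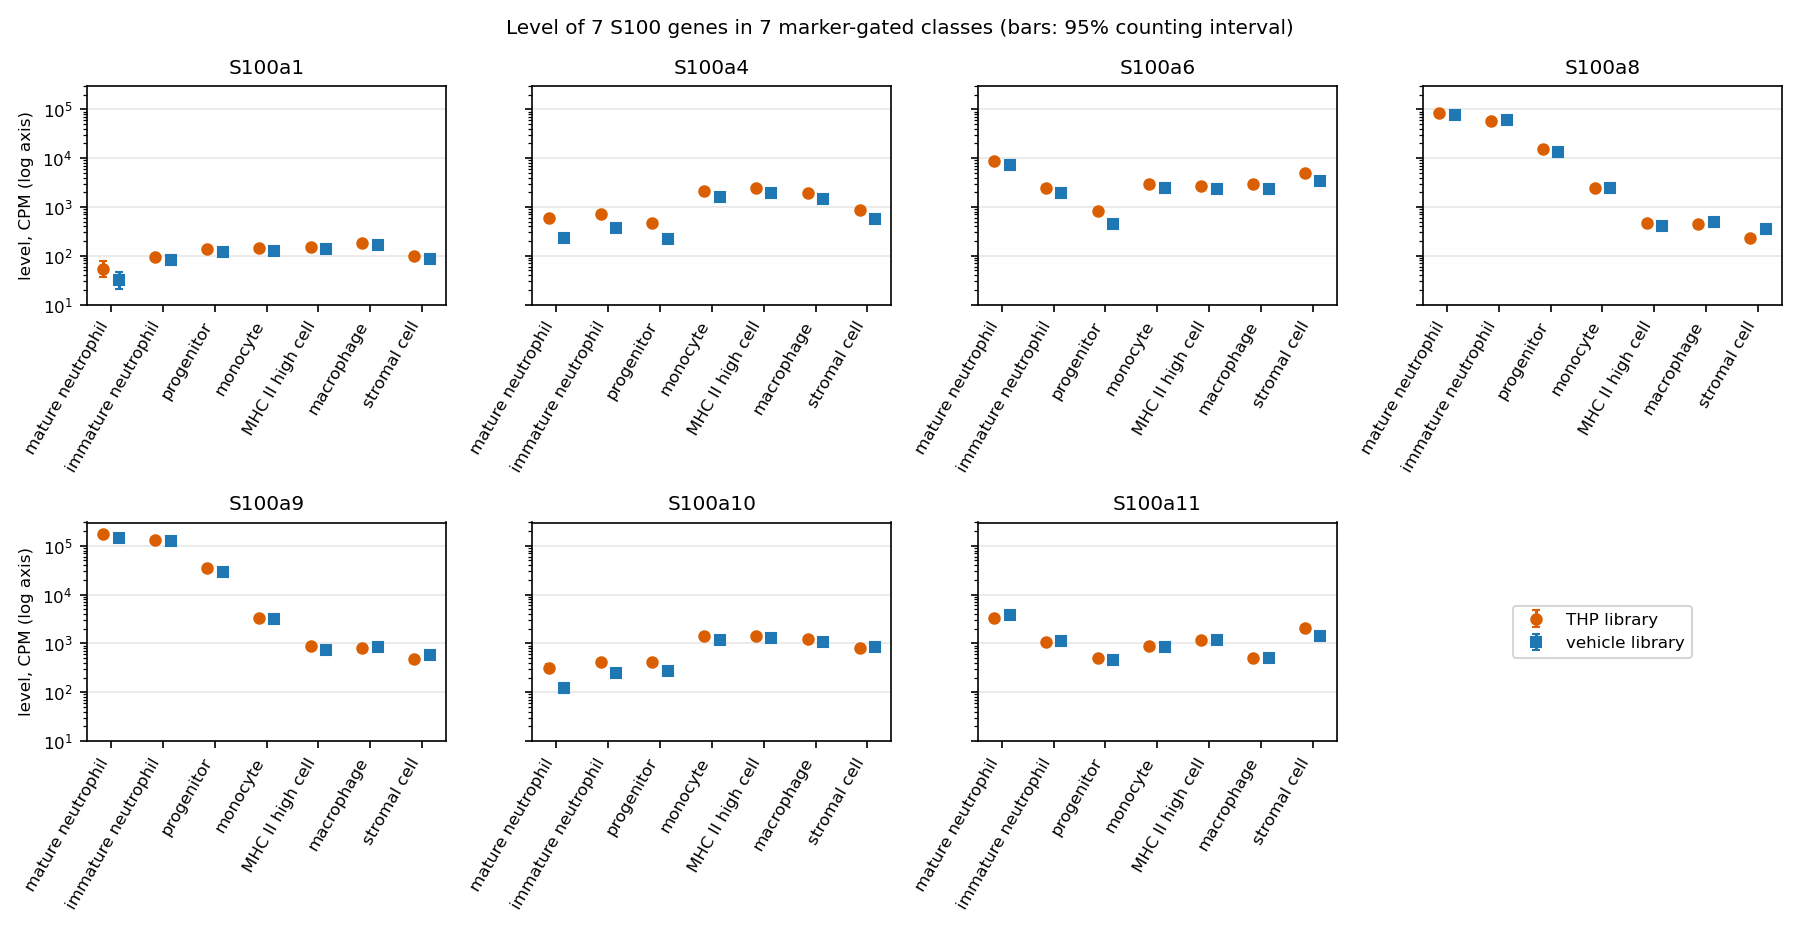
Level of each gene in CPM (log axis) in the 7 marker-gated classes, THP library as circles and vehicle library as squares, with 95% counting intervals as bars. S100a8 and S100a9 drop from 74822 CPM or more in mature neutrophils to under 1000 CPM in the MHC class II high, macrophage and stromal gates, while S100a4 and S100a10 are lowest in the neutrophil and progenitor gates.

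Progenitors ranged widely in calprotectin RNA. Grouped by how many of the 8 immature neutrophil markers (such as Ngp, Camp and Ltf) a progenitor-gate cell held, THP cells had 414 CPM of S100a9 with 0 markers and 117813 CPM with 7 markers. Vehicle cells had 457 and 102581 CPM. S100a8 followed the same course, from 241 to 47717 CPM (THP) and from 259 to 45212 CPM (vehicle), and both genes were higher at every added marker. From 1 marker to 7, both were higher in the THP library than in the vehicle library. S100a4 and S100a10 ran the other way: S100a4 was at 559 CPM with 0 markers and 174 CPM with 7 in THP cells, against 356 and 87.7 CPM in vehicle cells. S100a10 was at 500 and 144 CPM in THP cells and at 484 and 69.96 CPM in vehicle cells. Neither was lower at every step. This grouping was chosen after the data were seen.

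**Figure D2:**
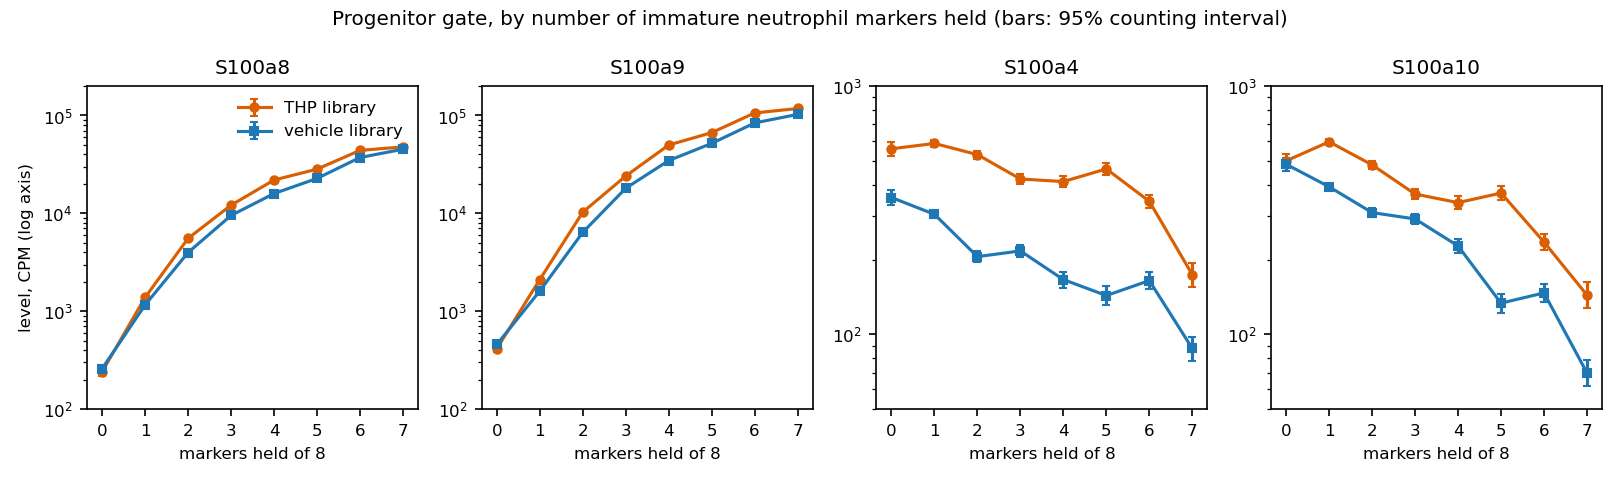
Level in CPM (log axis) of 4 S100 genes in cells of the progenitor gate, by the number of the 8 immature neutrophil markers held, THP as circles and vehicle as squares, with 95% counting intervals. S100a9 spans 414 to 117813 CPM in the THP library, and S100a4 spans 174 to 587 CPM with the vehicle library below it at each number of markers.

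S100a8 and S100a9 were also counted in nearly every macrophage, and there the median level was close to that in cells of another lineage, while the summed level was higher. The share of macrophage-gate cells with at least 1 S100a8 UMI was 96.2% (THP) and 99.2% (vehicle). Stromal cells, which hold Col1a1 and Sparc RNA and should lack the gene, had a UMI in 92.0% and 100% of cells, at median depths of 20305 and 39108 UMIs against 22440 and 24030.5 for macrophages. Thinned to 1000 UMIs per cell, the share was 19.6% and 25.7% in macrophages and 20% and 31.9% in stromal cells. The median macrophage had 1.58 S100a8 UMIs per 10000 (THP) and 2.35 (vehicle), against 1.57 and 1.89 in stromal cells. For S100a9 the medians were 2.88 and 4.12 in macrophages and 3.14 and 3.47 in stromal cells. The macrophage medians were thus 0.92 to 1.25 times those of stromal cells, and having a UMI of these genes was not read as expression by the typical macrophage. The summed level was 444 and 501 CPM of S100a8 in macrophages against 231 and 348 CPM in stromal cells, and 800 and 856 CPM of S100a9 against 475 and 592 CPM. The source of the summed excess was not tested. When free RNA, estimated from barcodes with under 1000 UMIs (S100a9 at 26161 and 38955 CPM there) and scaled to the neutrophil markers found in macrophages (3.24% and 2.27% of UMIs), was subtracted, 15.1 and 18.7 CPM of S100a8 and 0 CPM of S100a9 were left. The subtraction therefore took at least all of the S100a9 counts. Those barcodes come from matrices already filtered for cells and carry neutrophil RNA, so some may be small neutrophils and not empty droplets; which they are was not tested.

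The ratio of the 2 subunits was a further measure. S100a9 outnumbered S100a8 in each class, by 2.26 and 2.13 UMIs to 1 in immature neutrophils and by 2.29 and 2.17 in progenitors (THP first). Macrophages (1.80 and 1.71), stromal cells (2.05 and 1.70) and barcodes under 1000 UMIs (1.97 and 1.84) lay between these and the monocytes. Monocytes had 1.38 and 1.26, the lowest of all classes. S100a8 thus made up 42.0% (95% binomial interval 41.7 to 42.4%) of the pair's UMIs in THP monocytes and 44.3% (44.0 to 44.6%) in vehicle monocytes, against 33.6% (32.8 to 34.4%) and 35.3% (34.4 to 36.1%) in the low barcodes. Monocytes also had 16.0 and 10.2 S100a8 UMIs per UMI of Ngp, Camp, Ltf and Retnlg together, picked from the markers of the neutrophil gates. Progenitors had 9.37 and 8.48, MHC class II high cells 5.31 and 3.99, stromal cells 3.14 and 4.45 and macrophages 2.87 and 2.60. Mature neutrophils had 3.59 and 2.52, the low barcodes 1.78 and 1.53 and immature neutrophils 1.43 and 1.27. By this ratio stromal cells, which should lack S100a8, lay above macrophages in both libraries and above MHC class II high cells in the vehicle library. The monocyte peak did not hold against all markers of both neutrophil gates. S100a8 was at 2415 and 2459 CPM in monocytes, against 2752 and 3021 CPM of those markers summed. In progenitors it was at 15619 and 13645 CPM, against 10678 and 10398 CPM. Within the monocyte gate the gene was uneven, since the median cell had 3.05 and 3.58 S100a8 UMIs per 10000 and the upper quartile 22.7 and 25.3.

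**Figure D3:**
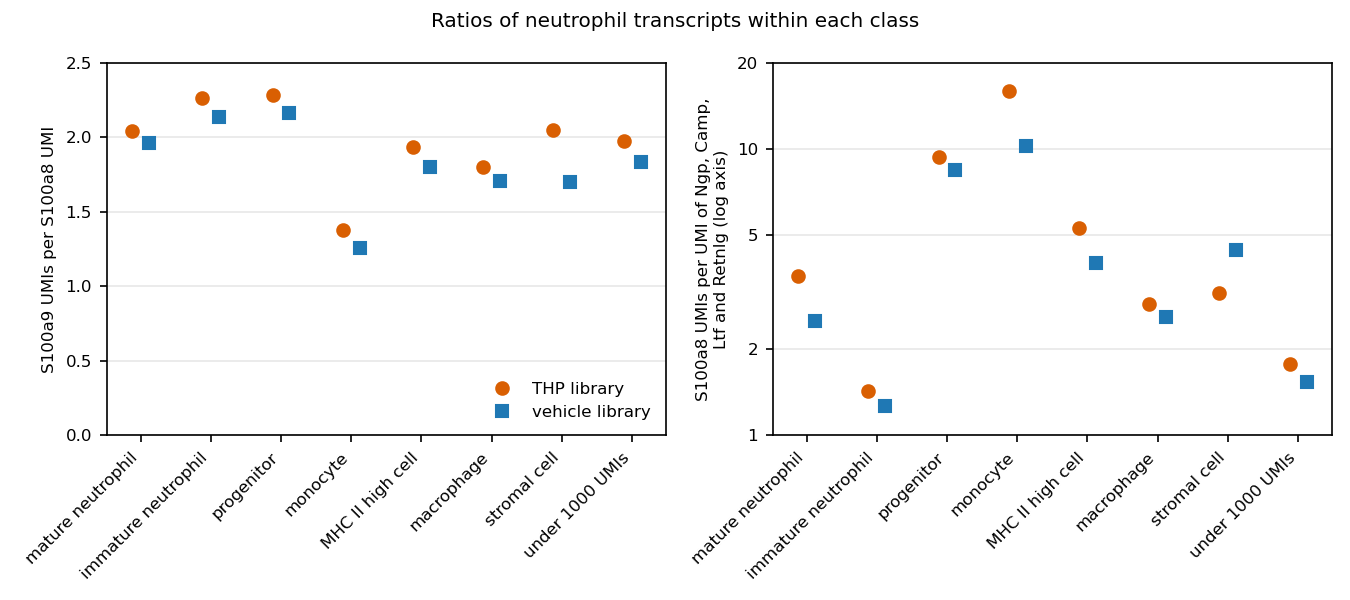
Left, S100a9 UMIs per S100a8 UMI in each class and in barcodes under 1000 UMIs. Right, S100a8 UMIs per UMI of Ngp, Camp, Ltf and Retnlg (log axis), THP as circles and vehicle as squares. The monocyte gate has the lowest value on the left (1.38 and 1.26) and the highest on the right (16.0 and 10.2). Against all markers of both neutrophil gates it is not the highest.

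S100a4, also called metastasin, binds nonmuscle myosin and is known from motile cells. It was at 1733 CPM (1727 to 1738) over all THP cells and 1185 CPM (1181 to 1190) over all vehicle cells, a log2 ratio of 0.55. In the macrophage gate it was at 1926 and 1484 CPM (log2 ratio 0.38), in monocytes at 2150 and 1599 CPM (0.43) and in MHC class II high cells, where it was highest, at 2477 and 1894 CPM (0.39). Stromal cells had 873 and 563 CPM (0.63). Thus the THP library was the higher in each class, with intervals that did not overlap in 7 of 7. The differences were wider where the gene was scarcer: 706 and 376 CPM in immature neutrophils (0.91), 592 and 226 CPM in mature neutrophils (1.38) and 468 and 217 CPM in progenitors (1.11). When clusters were made without S100 genes, cells of macrophage-like clusters lay mostly in different clusters in the 2 libraries. This stands beside the macrophage-gate values, but gated cells were not matched to clusters. Cluster 2, the largest macrophage-like cluster in the THP library, held 3790 THP and 122 vehicle cells. Cluster 9, the largest in the vehicle library, held 242 THP and 2338 vehicle cells. Their macrophage markers had median log2 folds over other cells of only 0.29 and 0.40. Cluster 14, where that median was 1.68, held 790 THP and 730 vehicle cells.

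S100a10, which pairs with annexin A2 at the plasma membrane and binds tissue plasminogen activator and plasminogen, was distributed much like S100a4. It was at 1107 and 867 CPM over all cells (log2 ratio 0.35), 1236 and 1045 CPM in macrophages (0.24), 1394 and 1188 CPM in monocytes (0.23) and 1410 and 1315 CPM in MHC class II high cells (0.10). Immature neutrophils had 422 and 246 CPM (0.78), mature neutrophils 320 and 120 CPM (1.40) and progenitors 420 and 277 CPM (0.60). Stromal cells were the exception, with 800 and 862 CPM and overlapping intervals. In the THP library the intervals of monocytes and MHC class II high cells overlapped, as did those of immature neutrophils and progenitors. Across the 14 points of class and library, S100a4 and S100a10 had a Pearson r of 0.93 on log2(CPM + 1). These points share 2 libraries, and no p was computed.

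Macrophage RNA was also higher in the THP neutrophils and progenitors. The 10 macrophage markers summed to 534 CPM in THP progenitors and 304 CPM in vehicle progenitors. In immature neutrophils they summed to 678 and 395 CPM and in mature neutrophils to 621 and 375 CPM, with 5, 5 and 3 markers at 50 CPM or more in the THP gates and 3 of 10 in each of the vehicle gates. Mertk was not counted at all in THP mature neutrophils. In macrophages themselves the list summed to 3313 and 3571 CPM. S100a4 per macrophage-marker UMI was 0.95 and 0.60 in mature neutrophils, 1.04 and 0.95 in immature neutrophils, 0.88 and 0.71 in progenitors and 0.58 and 0.42 in macrophages. The part of macrophage RNA in the S100a4 and S100a10 differences of these gates was not tested. The median immature neutrophil had 0 UMIs of either gene in both libraries.

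S100a6, or calcyclin, which binds the calcyclin-binding protein Cacybp and annexins, was the most abundant member outside the calprotectin pair. It was at 2683 CPM over all THP cells and 2034 CPM over all vehicle cells (log2 ratio 0.40). Its highest level was in mature neutrophils, at 8746 and 7066 CPM, followed by stromal cells at 4955 and 3321 CPM. Macrophages (2916 and 2381 CPM, the latter within the interval of vehicle MHC class II high cells), monocytes (2999 and 2456 CPM), MHC class II high cells (2640 and 2380 CPM) and immature neutrophils (2464 and 1905 CPM) lay close together, and progenitors were lowest, at 841 and 442 CPM (0.93). The THP library was the higher in 7 of 7 classes without overlap of the intervals. Macrophage-gate cells with at least 3 of 5 mitotic markers had 2863 CPM (THP) and 2338 CPM (vehicle), and the others had 3032 and 2469 CPM.

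S100a11, or calgizzarin, a partner of annexin A1, shared the pattern of S100a6 in part (r = 0.82 over the 14 points). Both were highest in mature neutrophils and then in stromal cells. Unlike S100a6, S100a11 was lower in macrophages than in immature neutrophils in both libraries. Mature neutrophils had 3304 and 3862 CPM, stromal cells 2101 and 1428 CPM, MHC class II high cells 1187 and 1151 CPM and immature neutrophils 1057 and 1126 CPM. Macrophages had 509 and 501 CPM and progenitors 496 and 451 CPM. In the vehicle library the intervals of the MHC class II high and immature neutrophil gates overlapped. Over all cells the gene was at 705 and 736 CPM, a log2 ratio of -0.06 that turned to 0.22 with either TMM or RLE scaling and to 0.0082 with the same class mix. S100a1 was the scarcest and the most even member, at 169 and 143 CPM over all cells (0.23). Its levels ran from 180 and 169 CPM in macrophages to 54.7 and 31.6 CPM in mature neutrophils, where 28 and 26 UMIs were counted and the intervals overlapped. Monocytes (142 and 122 CPM) and progenitors (140 and 120 CPM) did not differ beyond their intervals.

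Macrophages also differed among themselves. With more macrophage markers held by a cell, S100a4, S100a6, S100a10 and S100a11 were lower, apart from S100a6 in vehicle cells with 7 against 6 markers. In the THP library S100a4 was at 2158 CPM in cells with 5 of 10 markers and at 1357 CPM in cells with 9. In the vehicle library it was at 1794 and 1104 CPM, and at 523 CPM in the 104 cells with all 10 markers. S100a6 went from 3130 to 2187 CPM (THP) and from 2746 to 1827 CPM (vehicle) over the same 5 to 9 markers, S100a10 from 1366 to 965 and from 1207 to 857 CPM, and S100a11 from 628 to 368 and from 655 to 337 CPM. S100a1 did not follow, at 181 and 181 CPM (THP) and 181 and 166 CPM (vehicle), and S100a8 was higher with more markers, from 283 to 753 CPM (THP) and from 329 to 602 CPM (vehicle). S100a4 was the higher in the THP library at each number of markers from 5 to 9. The number of markers need not make the cells alike otherwise, since cells of macrophage-like clusters lay mostly in different clusters in the 2 libraries. Markers held were counted after the data were seen, and median depths ranged from 19674.5 to 25769.5 UMIs.

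**Figure D4:**
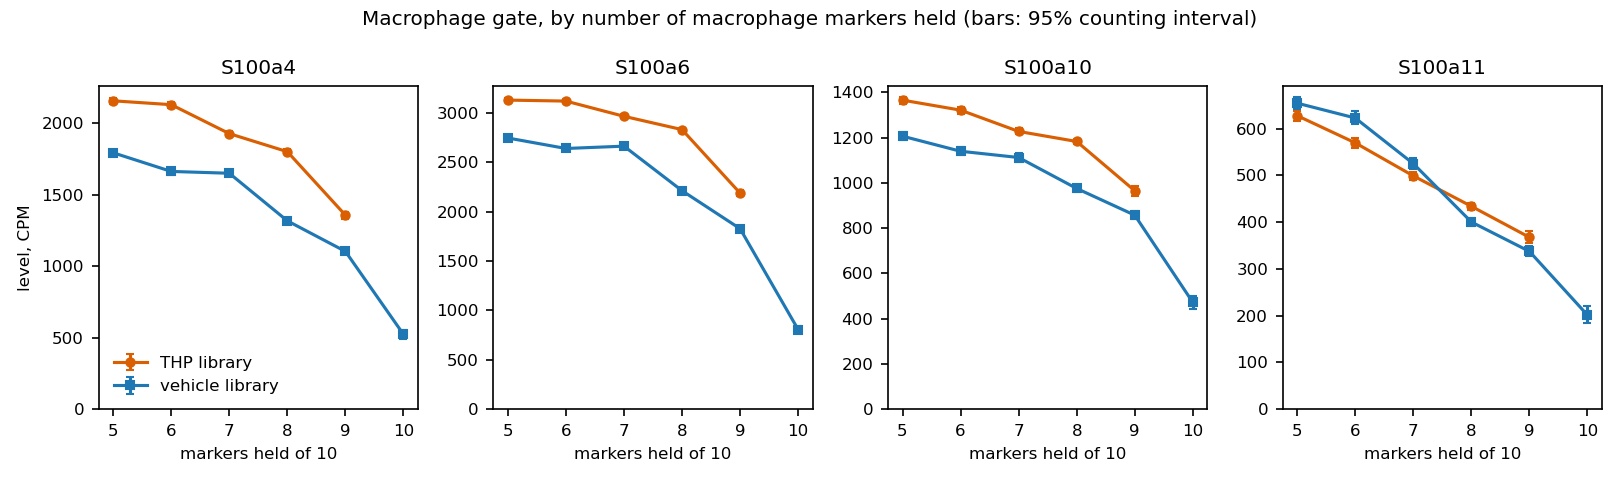
Level in CPM of 4 S100 genes in cells of the macrophage gate, by the number of the 10 macrophage markers held, THP as circles and vehicle as squares, with 95% counting intervals and axes from 0. S100a4 is lower with more markers, from 2158 to 1357 CPM between 5 and 9 markers in the THP library, and from 1794 to 1104 CPM in the vehicle library.

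With the size rule of at least 10 CPM in 1 library and at least 2-fold, 0 of the 7 genes passed over all kept cells, where 3.88% of 8012 genes passed in either direction. In the macrophage gate 0 of 7 passed (3.31% of 7889 genes), and in the pooled neutrophil gates 0 of 7 (6.60% of 7455 genes). There S100a4 was 1.90-fold higher in the THP library, and it passed with TMM or RLE scaling. In single gates S100a4 and S100a10 passed in mature neutrophils, where 28.7% of genes passed, and S100a4 in progenitors, where 3.45% did. None of the 7 passed in the immature neutrophil (6.43% of genes), monocyte (3.55%), MHC class II high (5.16%) or stromal (9.13%) gates. Over all cells the 7 log2 ratios had a median of 0.23, against -0.18 for all genes tested. However, ratios varied with transcript length, and 197 genes no longer than the longest S100 transcript had a median of 0.21, with 95% of them between -1.52 and 1.02. Against these short genes, S100a4 was 0.33 higher on the log2 scale, S100a6 0.19, S100a10 0.14 and S100a1 0.02, while S100a11, S100a9 and S100a8 were at -0.28, -0.49 and -0.56. S100a4 lay above the short-gene median in 7 of 7 classes, S100a6 in 6, S100a10 in 5 and S100a8 in 0. The part of transcript length in these differences was not tested beyond that.

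**Figure D5:**
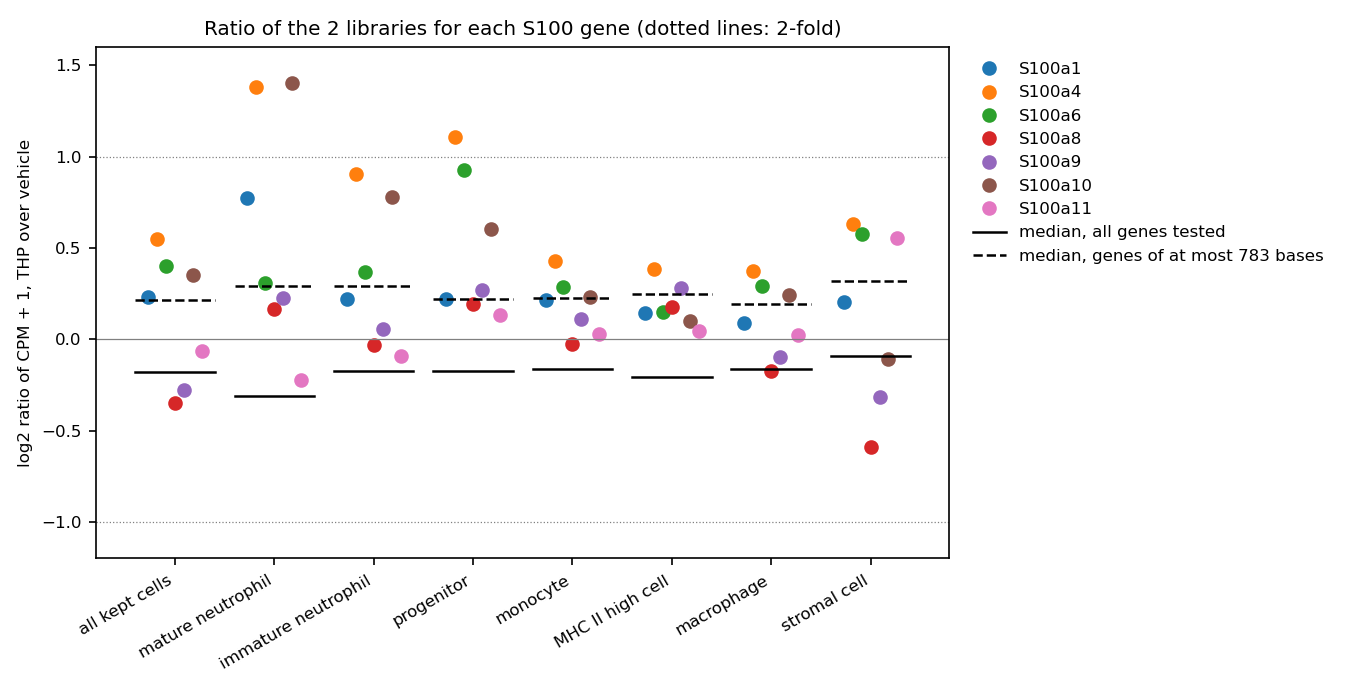
Log2 ratio of CPM + 1, THP over vehicle, for each S100 gene over all kept cells and in each class, with the median of all genes tested (solid line) and of genes of at most 783 bases (dashed line). S100a4 lies above the dashed line in each class, and reaches 1.38 in mature neutrophils and 1.11 in progenitors, past the dotted 2-fold line.

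Of the 10 other S100 genes in the tables, S100a13, the divergently oriented neighbour of S100a1, was the only one above 10 CPM over all cells. It was at 209 and 167 CPM (0.33). S100a16 marked stromal cells, which held 359 of its 404 UMIs (THP) and 554 of 582 (vehicle), 197 and 195 CPM within that gate. S100a3, S100a5, S100a7a, S100a2, S100a14, S100b and S100g each had under 1 CPM over all cells in both libraries. Single gates could be higher, such as S100a7a in mature neutrophils (5.86 and 24.3 CPM, from 3 and 20 UMIs) and S100b in stromal cells (7.14 and 2.47 CPM). The intervals of the 2 libraries overlapped in both cases. S100z had 0 UMIs, with upper 95% limits of 0.0164 and 0.0178 CPM.

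Partners and receptors of S100 proteins were a list of 16 genes, 15 of them at 10 CPM or more. Over all cells 0 passed the size rule upward and 2 downward, where 2.97% of all genes passed downward; the list median was -0.20. The 2 were Ahnak, a giant scaffold protein that binds the S100A10 and annexin A2 complex, at 370 and 773 CPM (-1.06), and Tlr4, the receptor of calprotectin and of lipopolysaccharide, at 11 and 24.1 CPM (-1.07). Both passed in the macrophage gate as well, where 2.32% of genes passed downward. Ahnak was at 451 and 1049 CPM there and Tlr4 at 13.3 and 36.3 CPM. Over all cells both lie close to the 2-fold limit, and TMM scaling moved the median ratio of all genes tested from -0.18 to 0.11. The TMM factors were 0.906 (THP) and 1.10 (vehicle) over all cells, and RLE factors were alike, so both raise the ratios. Scaled by either, neither gene reaches 2-fold over all cells, where 207 genes do. In the macrophage gate Tlr4 still does and Ahnak does not, where 186 (TMM) and 191 (RLE) genes do. Whether these genes pass against genes of like length was not tested. Anxa2 itself was at 777 and 663 CPM (0.23) and Myh9, the nonmuscle myosin heavy chain bound by S100A4, at 183 and 326 CPM (-0.83). Ager, the receptor for advanced glycation end products, was below 1 CPM in both libraries. Bsg, a calprotectin receptor also called CD147, was at 311 and 270 CPM (0.20).

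Among 6 myeloid regulators, 0 passed over all cells, where 3.88% of genes did, and the list median was -0.22. Cebpa (-0.91), Cebpe (-0.93) and Gfi1 (-0.96) were lower in the THP library over all cells. Spi1 (0.46) was higher, as were Cebpb and Cebpd. Several of these ratios lie close to the 2-fold limit, and the counts depend on scaling. With TMM or RLE factors Cebpb and Cebpd reach 2-fold over all cells, where 207 genes do. Cebpb then reaches it in the macrophage gate as well, where 186 (TMM) and 191 (RLE) genes do. Cebpa no longer reaches it in the neutrophil gates, where 344 (TMM) and 345 (RLE) genes do. Cebpd, a C/EBP factor of the acute phase, was at 281 and 142 CPM (0.99) over all cells and passed in the macrophage gate, at 281 and 82.1 CPM (1.76), where 3.31% of genes did. In the neutrophil gates it was at 347 and 351 CPM (-0.02). Cebpb was at 466 and 258 CPM over all cells (0.85) and passed in the neutrophil gates, at 573 and 281 CPM (1.02), where 6.60% of genes passed and Cebpa passed downward, at 10.6 and 22.8 CPM (-1.03). Cebpe, the factor of granule-stage neutrophils, was at 335 and 512 CPM there (-0.61).

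The genes whose levels ran most like each member were found over the 14 points among 10049 genes. S100a8 and S100a9 were each other's nearest (r = 0.998), followed by Pglyrp1, a granule protein that binds bacterial cell wall, at 0.993 for both. After these came Chil1 (0.990) for S100a8, while Wfdc21 (0.995) preceded Pglyrp1 for S100a9. S100a4 was nearest to Mcub (0.980) and Tnip3 (0.964), and S100a10 to Tm2d2 (0.970), Tubb2a (0.956) and P2ry10b (0.949). For S100a6 they were Myadm (0.925), Cd9 (0.919) and Ier5 (0.917), and for S100a11 Zyx (0.976), Gcnt2 (0.951) and Pdlim2 (0.934). S100a1 was nearest to Dnajc19 (0.983), Fkbp2 (0.983) and Bcat2 (0.974). Points of 1 class in both libraries are close to each other, and the smallest gates differ most in depth.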

How the data were processed

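The deposited matrices were read as raw counts of UMIs per gene and barcode. The header of the THP matrix gives software version 3.1.0 and format version 2. Per the submitters' processing notes, Cell Ranger, bcl2fastq, STAR and mm10 were used. Here, barcodes with at least 500 genes, at least 1000 UMIs and at most 10% mitochondrial UMIs were kept; doublets and free RNA were not removed. A marker was held with at least 2 UMIs and 1 per 10000, and a cell joined the class with the largest share of its markers held, at least 50%, without a tie; these thresholds were set on the markers after the files were seen. UMIs were summed per class and library to CPM, with exact Poisson intervals, and shares have exact Clopper-Pearson intervals (95%). Ratios are log2 of CPM + 1. The size rule, but not the summing, was tested on simulated gene totals. The planted changes were well past 2-fold, so ratios near the limit were not tested. Tools were scanpy 1.11.5, scipy 1.17.1 and edgeR 4.0.16, used for scaling factors only, with no test. Named genes were the members, the other S100 genes, listed partners and regulators, and the 3 genes most like each member, of which 1 is not reported here. Members and lists were chosen with earlier results of these data known.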

Additional observations from a re-analysis of the deposited data

Results flagged for a closer look

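Some S100 genes had log2 ratios of THP over vehicle that pointed in opposite directions in different classes with counting intervals apart; whether the classes differ was not tested, since each class has 1 library per group. S100a8 was lower in the THP library in the stromal (-0.59), macrophage (-0.17) and immature neutrophil (-0.029) gates, and higher in the progenitor (0.19), MHC class II high (0.18) and mature neutrophil (0.17) gates. S100a9 was lower in the stromal (-0.32) and macrophage (-0.10) gates and higher in the MHC class II high (0.28), progenitor (0.27), mature neutrophil (0.23), monocyte (0.11) and immature neutrophil (0.056) gates. In the macrophage gate the median cell had 1.58 and 2.35 S100a8 UMIs per 10000 (THP, vehicle), against 1.57 and 1.89 in the stromal gate; the part of free RNA in these ratios was not tested. S100a11 was lower in the mature (-0.23) and immature (-0.091) neutrophil gates and higher in the stromal (0.56), progenitor (0.13) and MHC class II high (0.044) gates.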

How the results depend on the processing

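No paired analysis was possible because each group is 1 library. The count of S100 genes past 2-fold stayed at 0 of 7 over all cells and in the macrophage gate under each alternative. In the neutrophil gates it was 1 with TMM factors, 1 with RLE factors (S100a4 in both), 2 with a limit of 1.5-fold (S100a4 and S100a10), and 1 with free RNA subtracted (S100a6, 3.56), where the estimate took 56.0% and 66.0% of all UMIs 2822 genes passed in place of 492, and S100a4 was at 0.36 and S100a10 at 0.15. TMM moved the median ratio of all genes over all cells from -0.18 to 0.11. The log2 ratios of S100a4, S100a6 and S100a10 kept their direction in all 3 comparisons under each alternative. S100a4 ranged from 0.36 to 0.83 over all cells and from 0.19 to 0.64 in macrophages. Some ratios came near no difference. S100a10 ranged from 0.056 to 0.51 in macrophages, and S100a6 from 0.034 to 3.56 in the neutrophil gates. S100a1, S100a8, S100a9 and S100a11 turned as follows, for causes not tested. Over all cells, TMM gave 0.0059 for S100a9 and 0.22 for S100a11, RLE 0.22 for S100a11, and the same class mix 0.024 for S100a8, 0.11 for S100a9 and 0.0082 for S100a11. In macrophages, TMM gave 0.066 for S100a8 and 0.14 for S100a9, RLE 0.089 and 0.17, clusters made without S100 genes 0.083 and 0.20, and dropping the 5% of cells richest in UMIs 0.024 for S100a9; subtracting genes of like length gave -0.10 for S100a1 and -0.16 for S100a11. In the neutrophil gates, S100a8 turned to 0.15 (TMM), 0.16 (RLE), 0.024 (richest 5% dropped), 0.13 (equal weight per cell), 0.0054 (total without the 50 most abundant genes), 0.25 (clusters) and 0.054 (free RNA subtracted); S100a11 to 0.023 (TMM), 0.033 (RLE), 0.13 (clusters) and 0.65 (free RNA subtracted); S100a1 to -0.043 (like length) and -0.44 (free RNA subtracted), and S100a9 to -0.23 (like length). The share of immature neutrophils with a S100a11 UMI, lower in the THP library as measured, was 0.54 percentage points higher when thinned to 1000 UMIs. Stromal and mature neutrophil gates have the fewest cells, and their values are the least precise.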
